A study of Mus musculus with 13 samples.

Results

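The genes described here encode the proteasome, its regulators and its assembly factors. They are the protein-coding rows of the count table whose GRCm38 symbol starts with Psma, Psmb, Psmc, Psmd, Psme, Psmf or Psmg followed by a digit. This naming rule used no measured value and took 50 of the 49315 rows. The samples were 13 RNA sequencing libraries of mouse skeletal muscle, made from polyA-selected RNA. Flox animals carried floxed alleles of the microRNA locus miR-181a2b2 on both chromosomes and are called WT in the sample titles, and KO animals lacked this locus systemically. The diet was chow or HFSC, an abbreviation that the labels leave unexplained. Flox muscle gave 3 libraries on chow and 4 on HFSC, and KO muscle gave 3 on each diet. The series is also described as a study of hindlimb ischemia, but no source used here gives the limb, the time after surgery, a Cre driver, sex or age.

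The proteasome degrades proteins that carry a ubiquitin chain. Its barrel is built of outer rings of alpha subunits and inner rings of beta subunits, and a regulatory particle on each end recognises, unfolds and feeds in the substrate. In each inner ring Psmb5, Psmb6 and Psmb7 carry the chymotrypsin-like, caspase-like and trypsin-like sites, and interferon-induced Psmb8, Psmb9 and Psmb10 take their respective places in the immunoproteasome, which makes peptides for presentation on MHC class I. In muscle the ubiquitin and proteasome system is best known for breaking down myofibrillar protein during atrophy, while the immunoproteasome is most abundant in leukocytes.

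By role, the 50 genes were 7 alpha subunits, 4 beta subunits without a catalytic site, 3 constitutive and 3 induced catalytic subunits, 6 ATPases and 11 other subunits of the regulatory particle, 3 chaperones of that particle, 5 activators, 1 inhibitor and 4 core assembly chaperones. The remaining 3 were Psma8 and Psmb11, core subunits restricted to testis and thymus respectively, and Psmc3ip, a meiotic protein that bears a similar symbol and is not a subunit. The low-count filter kept 48 of the 50. Psma8 had between 0 and 12 reads in a library and Psmb11 between 0 and 2, and neither was tested. Leaving out the induced subunits, the chaperones, the activators and the inhibitor, 31 genes encode the constitutive 26S particle.

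Promoter stretches of some catalytic genes are shown first, because the comparisons turn on pairs of catalytic subunits. RefSeq promoter windows on GRCm38.p6, from 250 bases before to 50 bases after a start site, were available for 42 of the 50 genes. They were searched on both strands for the core of the antioxidant response element (TGACNNNGC), known as the site through which Nfe2l1 and Nfe2l2 raise proteasome genes, the CCAAT box (CCAAT), the core of the interferon-stimulated response element (GAAA, any 2 bases, GAAA) and the core of the gamma-activated site (TTCNNNGAA). Psma8, Psmb1, Psmb2, Psmb7, Psmc3, Psmd3, Psmd7 and Psmg2 had no window and were not searched. Of the 31 constitutive 26S genes 25 had a window. Each stretch below is written 5′ to 3′ on the strand of the gene, and capitals mark the match. Psmb5 (chr14:54618024-54618052, minus strand) and Psmb6 (chr11:70525338-70525366, plus strand) hold the antioxidant core, and Psmb8 (chr17:34198088-34198116, plus strand) holds the gamma-activated core.
Psmb5: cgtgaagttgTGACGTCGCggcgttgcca
Psmb6: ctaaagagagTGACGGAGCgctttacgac
Psmb8: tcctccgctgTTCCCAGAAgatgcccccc
The match began 47 bases before the RefSeq start of Psmb5, 9 bases before that of Psmb6 and 97 bases before that of Psmb8, and 0 matches to the other motifs overlapped any of them. The Psmb8 site lies inside the first exon of the gene's principal GENCODE transcript, which starts further upstream.

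For the antioxidant core and the CCAAT box the share of windows with a match was near that of all windows. The antioxidant core was present in 4 of 27 windows of the constitutive 26S genes (14.8%; Psmb5, Psmb6, Psmc6 and Psmd12) and in 12.4% of all 32851 windows, and outside that set in Psmd9 and Psme4. The CCAAT box was in 37.0% of the constitutive windows and 37.4% of all windows. The interferon-stimulated core was in 2 of 27 constitutive windows (7.41%; Psmb3 and Psmd4), in 0 of the 3 windows of the induced subunits and in 3.44% of all windows. It was also in Psme1 of the interferon-induced cap, Psmd9 and Psmg4. The gamma-activated core was in 1 of the 3 induced windows, Psmb8, in 1 of 27 constitutive windows (Psmd2), in Psmg1, and in 8.30% of all windows. A match is a string of letters and not a measured binding site.

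Library totals ran from 20830943 to 45710227 counts, with a median of 29011060, and 16496 genes were tested. Levels are CPM, read counts divided by a library size that was scaled with edgeR's TMM factors (trimmed mean of M values). The deleted hairpins could not check the genotype labels, because Mir181a-2 had at most 2 reads in a flox library and 0 in each KO library, and Mir181b-2 had 0 in all. Skeletal muscle markers summed to between 92625 and 213514 CPM, while adipocyte markers, looked at because the extraction text names white adipose tissue, summed to between 209.5 and 756 CPM. The labels do not state that samples are separate animals, and p-values then reflect only the spread of these libraries, which may be technical.

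Per length of principal mRNA, the highest of the constitutive 26S genes was 5.49 times the lowest. Dividing mean CPM by the length of the principal mRNA, the 31 genes ran from 22.8 CPM per kb for Psma2 to 125 CPM per kb for Psmb6, with a median of 77.6. Psmb5, Psmb6 and Psmb7 stood at 91.6, 125 and 123 CPM per kb. Psmb9, Psmb8 and Psmb10 stood at 2.32, 4.15 and 6.98 CPM per kb, below the 31 genes. Among the regulatory particle, the ATPases ran from 45.7 (Psmc4) to 110 (Psmc3, which helps open the gate of the barrel), and the other subunits from 32.8 (Psmd14, the deubiquitinase of the lid) to 101 CPM per kb (Psmd8, a lid subunit). With merged exon lengths, an alternative chosen after seeing the data, Psmb5, Psmb6 and Psmb7 stood at 91.6, 53.3 and 41.6 CPM per kb. The lowest of the 31 genes was then Psmd11 at 15.9, so the order of genes depends on the length used.

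Factors that build the particle were lower per length than its parts. The regulatory particle chaperones Psmd5, Psmd10 and Psmd9 stood at 4.81, 6.42 and 6.79 CPM per kb, and the core assembly chaperones ran from 5.27 for Psmg3 to 14.7 for Psmg2. The activators differed most: the nuclear activator Psme3 had 20.8 CPM per kb, Psme1 and Psme2, which form the interferon-induced cap, had 28.5 and 20.1, the retrogene Psme2b had 1.85, and the large single-chain activator Psme4 had 57.0. Psmf1, an inhibitor that binds the barrel, had 3.62 CPM per kb.

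**Figure D1:**
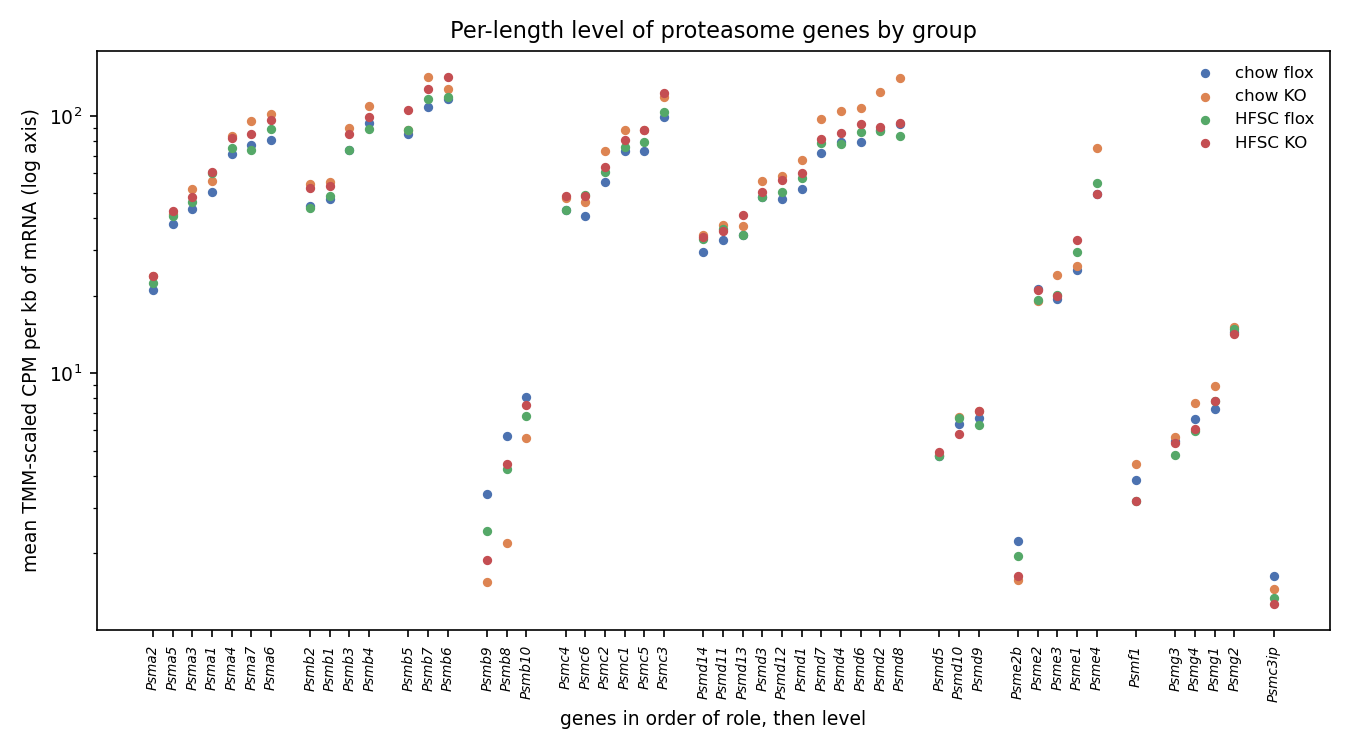
Mean TMM-scaled CPM per kb of principal mRNA (vertical, log axis) in each group (coloured points) for the 48 tested genes, ordered by role and then by level. The 3 induced catalytic subunits, at 2.32 to 6.98 CPM per kb over all libraries, lie below all 31 constitutive 26S genes, and the assembly chaperones, the inhibitor and Psme2b are also low.

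The constitutive genes varied little between libraries of a group. The median within-group SD on the log2 scale was 0.12 over the 31 genes, 0.23 over all tested genes and 0.18 over the 2821 tested genes in the same range of mean CPM. Psmb1, a beta subunit, was the steadiest at 0.054, with 80.1 to 89.1 CPM in chow flox, 95.2 to 99.7 in chow KO, 84.1 to 89.4 in HFSC flox and 89.8 to 97.5 in HFSC KO. Of the induced subunits Psmb9 (0.36) and Psmb8 (0.49) spread more than any of the 31 genes. Psmb10, at 0.18, was within the constitutive range of 0.054 to 0.34 and below the median of all tested genes. Mean levels were 3.14 to 9.15 CPM for the induced subunits and 41.6 to 287 CPM for the 31 genes. No set matched to the level of the induced subunits was taken. Psmd8 (0.34) and Psme4 (0.32) were also variable.

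On chow, the immunoproteasome genes were lower in KO than in flox muscle while no constitutive subunit passed the test. Psmb8, Psmb9 and Psmb10 were the only proteasome genes called, at an adjusted p under 0.05 in edgeR's quasi-likelihood test with Benjamini-Hochberg adjustment over all 16496 genes. That is 3 of 48, all lower, beside a background of 11.5% of all tested genes called, 10.1% lower and 1.38% higher. The share of the whole set was therefore below the background, and the 3 calls were the 3 induced catalytic subunits.

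Psmb8 is the induced chymotrypsin-like subunit (chr17:34197721-34201454, in the MHC region). It had 9.40, 14.7 and 3.77 CPM in chow flox replicates 2, 3 and 4 and 4.78, 2.80 and 3.15 CPM in chow KO replicates 1, 2 and 3. Replicates 2 and 3 of chow flox were above all KO libraries, and replicate 4 lay within the KO range. The log2 fold change was -1.38 ± 0.37 (SE, n = 3 and 3; adjusted p = 0.0347).

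Psmb9, the induced caspase-like subunit, lies on the opposite strand beside it (chr17:34181987-34187764). Its levels were 5.39, 6.20 and 2.21 CPM in chow flox and 2.11, 1.92 and 2.24 CPM in chow KO. Again only replicates 2 and 3 of flox were above the KO libraries. The log2 fold change was -1.14 ± 0.31 (adjusted p = 0.0337). Psmb9 shares 5.79% of its exon bases with Tap1 on the opposite strand and Psmb8 shares 14.7% with the predicted gene Gm20496, and no source used here gives the strand setting of the counting, so reads from the overlaps cannot be told apart.

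Psmb10, the induced trypsin-like subunit (chr8:105935735-105938444), had 11.1, 12.7 and 7.93 CPM in chow flox and 7.40, 7.51 and 7.07 CPM in chow KO. Here the groups did not overlap, although chow flox replicate 4 was close to the KO libraries. The log2 fold change was -0.53 ± 0.16 (adjusted p = 0.0497). Among the 48 tested genes this was the 1 with flox above KO in every library, beside 13.9% of all tested genes with non-overlapping lower values. The untested Psma8 had 6, 12 and 2 reads in chow flox (0.148, 0.320 and 0.0762 CPM) and 1, 0 and 0 reads in chow KO (0.0341, 0 and 0 CPM). These groups did not overlap, but where they came nearest they had 2 reads and 1. Each is below the 3 counts to which a gene with 0 reads is limited, so no difference can be read from them.

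The constitutive partners were not called. Psmb5 had 76.5, 68.2 and 85.5 CPM in chow flox and 77.7, 79.7 and 80.7 CPM in chow KO, with overlapping groups (log2 fold change 0.05 ± 0.10, adjusted p = 0.75). Psmb6 had 93.3, 84.4 and 101 CPM against 96.0, 101 and 107 CPM, also overlapping (0.12 ± 0.10, adjusted p = 0.38). Psmb7 had 123, 102 and 153 CPM in flox and 161, 160 and 170 CPM in KO, with no overlap, and did not pass the test (0.38 ± 0.14, adjusted p = 0.0863). Psmb7 is also the member nearest to the deleted locus, ending 209 kb before Mir181a-2 on chromosome 2.

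**Figure D2:**
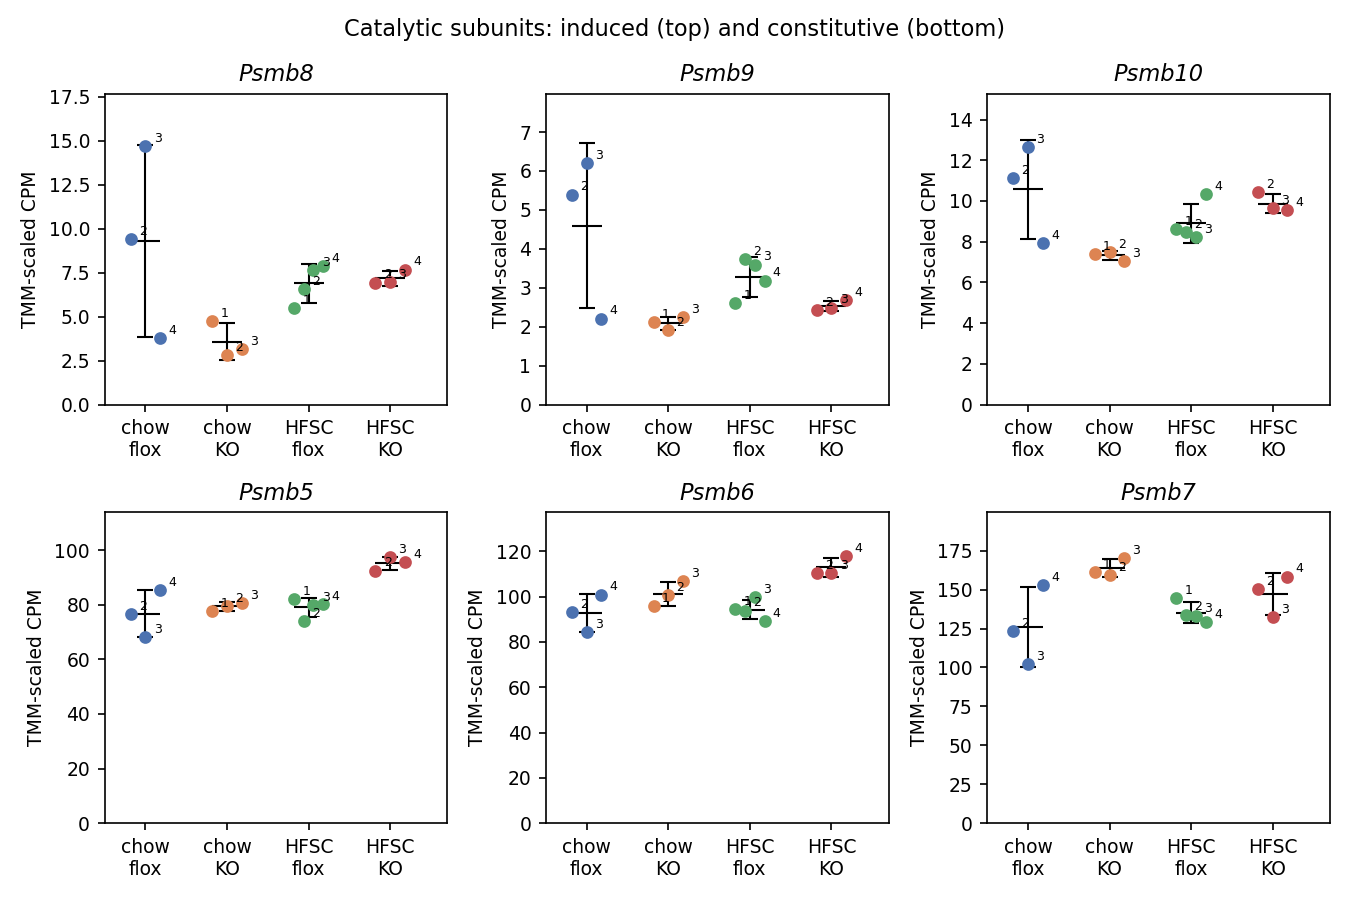
TMM-scaled CPM (vertical) of the induced (top row) and constitutive (bottom row) catalytic subunits in each library, by group, with replicate numbers; bars are mean ± SD. Chow flox replicates 2 and 3 are high for Psmb8, Psmb9 and Psmb10, and chow flox replicate 4 sits at or near the chow KO libraries.

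The calls rest on which chow libraries are used. Without chow flox replicate 4, 27 proteasome genes were called, 24 higher and 3 lower, the latter being the induced subunits with log2 fold changes of -1.74, -1.46 and -0.69 for Psmb8, Psmb9 and Psmb10. Leaving out chow flox replicate 2 or 3 or chow KO replicate 2 or 3 left 0 called, and leaving out chow KO replicate 1 left Psmb8 alone. The log2 fold changes of the 3 induced subunits were below 0 in each of these fits. Calls were also lost in other edgeR fits, with 0 left when only the groups compared were fitted, 0 with the replicate number as a block and 1 (Psmb9) with no low-count filter. With size factors by relative log expression 4 were called, and Psmb10 was not among them (adjusted p = 0.0532). DESeq2 called 14 (11 higher and 3 lower) and limma voom with sample weights 31 (28 higher and 3 lower). Counts from other fits, here and below, are given without the share of all tested genes called in the same fit. They cannot be set against the background of the reported fit.

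Leukocyte transcripts moved the same way across these libraries. All 15 leukocyte and macrophage markers were called lower in chow KO, beside 10.1% of all tested genes. None of the 15 was at 0 in any library, and their median log2 fold change was -2.89. Their summed level was 432, 1182 and 112 CPM in chow flox replicates 2, 3 and 4 and 40.2 to 84.5 CPM in chow KO, so the flox library with low induced subunits also had the lowest leukocyte sum of its group. Lymphocyte markers summed to between 1.64 and 11.4 CPM in chow flox and 1.501 to 1.59 CPM in chow KO, with up to 4 of 10 at 0 in a library. In whole muscle, fewer cells of a type and less RNA per cell cannot be told apart. Fibroblast markers moved likewise, with all 10 called lower and sums of 1279 to 6605 CPM in chow flox and 418 to 645 CPM in chow KO. Of the other lists 4 of 8 tested lymphocyte markers and 2 of 10 endothelial markers were called lower, beside the same 10.1% of all tested genes. Of 9 tested adipocyte markers 0 were called. The part of these cells in the difference of the induced subunits was not tested.

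**Figure D3:**
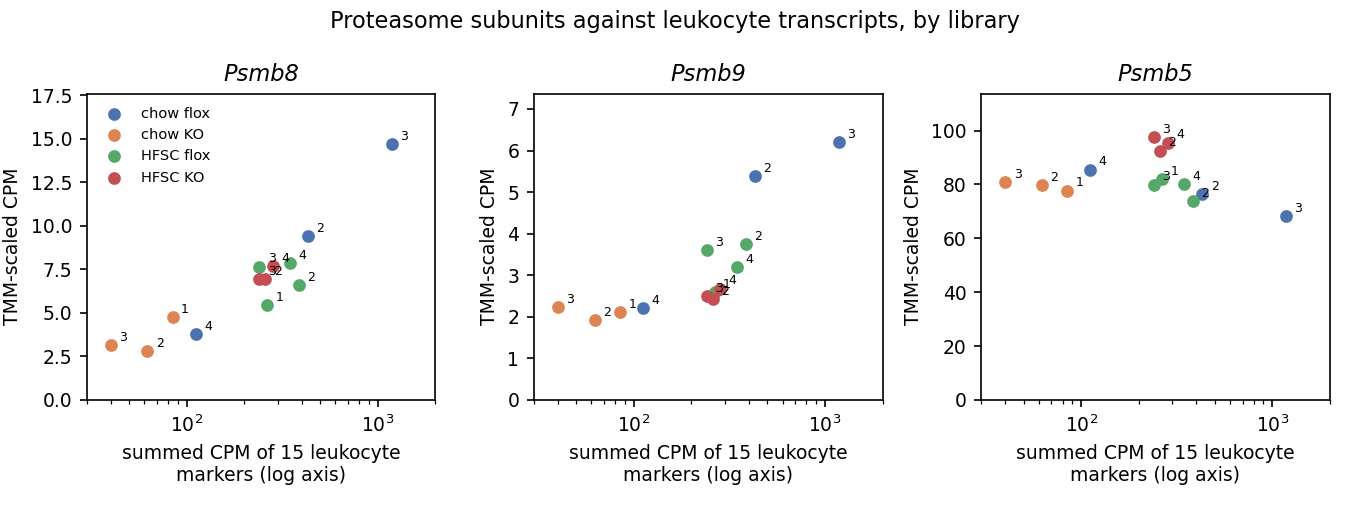
Level of Psmb8, Psmb9 and Psmb5 (vertical, TMM-scaled CPM) against the summed CPM of 15 leukocyte markers (horizontal, log axis) in 13 libraries, coloured by group and numbered by replicate. The library with 1182 CPM of markers has the highest Psmb8 and Psmb9 and the lowest Psmb5; the libraries share depth and scaling, so the picture is a description.

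The median of the constitutive genes was above that of all tested genes on chow, and 0 were called. With TMM scaling all 31 had a log2 fold change above 0, beside 49.4% of all tested genes, with a median of 0.26 against -0.01. An unadjusted p under 0.05 in edgeR was found for 18 of the 31, beside 5579 of all 16496 tested genes. In 16 of 31 every KO library was above every flox library, beside 10.9% of all tested genes. On library totals with no TMM factors the median was -0.059, with 9 genes above 0 and 22 below, while the median of all genes was -0.35. Relative to the median of all genes the 31 stood at 0.27 with TMM and 0.29 with library totals. Without chow flox replicate 3 the TMM median was 0.15, with 30 of 31 above 0.

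The library medians of the 31 genes, each gene taken relative to its own mean, were -0.13, -0.34 and 0.06 (log2) in chow flox replicates 2, 3 and 4 and 0.11, 0.11 and 0.18 in chow KO. Chow flox replicate 4 was again the nearest to the KO group. Skeletal muscle markers, whose summed level was 92625 to 196998 CPM in chow flox and 165904 to 213514 CPM in chow KO, had a median log2 fold change of 0.43, and their part in this was not tested.

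The ranges of the roles within the constitutive set overlapped. The alpha subunits ran from 0.12 for Psma5 to 0.35 for Psma6, and the non-catalytic beta subunits from 0.22 for Psmb1 to 0.29 for Psmb3. Psmb3 had 57.7, 51.1 and 61.1 CPM in chow flox and 70.5, 67.2 and 69.3 CPM in chow KO, and all 4 non-catalytic beta subunits had non-overlapping groups. The ATPases ran from 0.16 for Psmc4 to 0.40 for Psmc2 (adjusted p = 0.057), both in the ring that unfolds substrate. The other regulatory subunits ran from 0.12 for Psmd13 to 0.59 for Psmd8.

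Psmd2, the large scaffold that docks shuttle proteins carrying substrate, had 247, 207 and 328 CPM in chow flox and 381, 357 and 366 CPM in chow KO, with no overlap (0.50 ± 0.17, adjusted p = 0.0698). Psmd8 had 110, 100 and 220 CPM in flox, and 191, 209 and 251 CPM in KO, so that flox replicate 4 lay among the KO libraries (0.59 ± 0.25, adjusted p = 0.12). Among the chaperones, Psmd5 and Psmd10 had 0.01 and 0.10, and Psmg3 and Psmg1 0.04 and 0.30.

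The activators went in both directions and none was called. Psme1 had 27.1, 31.6 and 25.5 CPM in chow flox and 26.2, 31.5 and 29.0 CPM in chow KO (0.04 ± 0.13, adjusted p = 0.84). Psme2 had 19.6, 24.3 and 17.4 CPM and 17.8, 18.9 and 18.3 CPM (-0.16 ± 0.12, adjusted p = 0.34). Both interferon-induced cap genes overlapped between the groups. Psme4, known for its role in the breakdown of acetylated histones, had 304, 215 and 451 CPM in flox and 473, 474 and 507 CPM in KO, with no overlap (0.59 ± 0.24, adjusted p = 0.11), and Psme2b had the lowest value at -0.52.

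**Figure D4:**
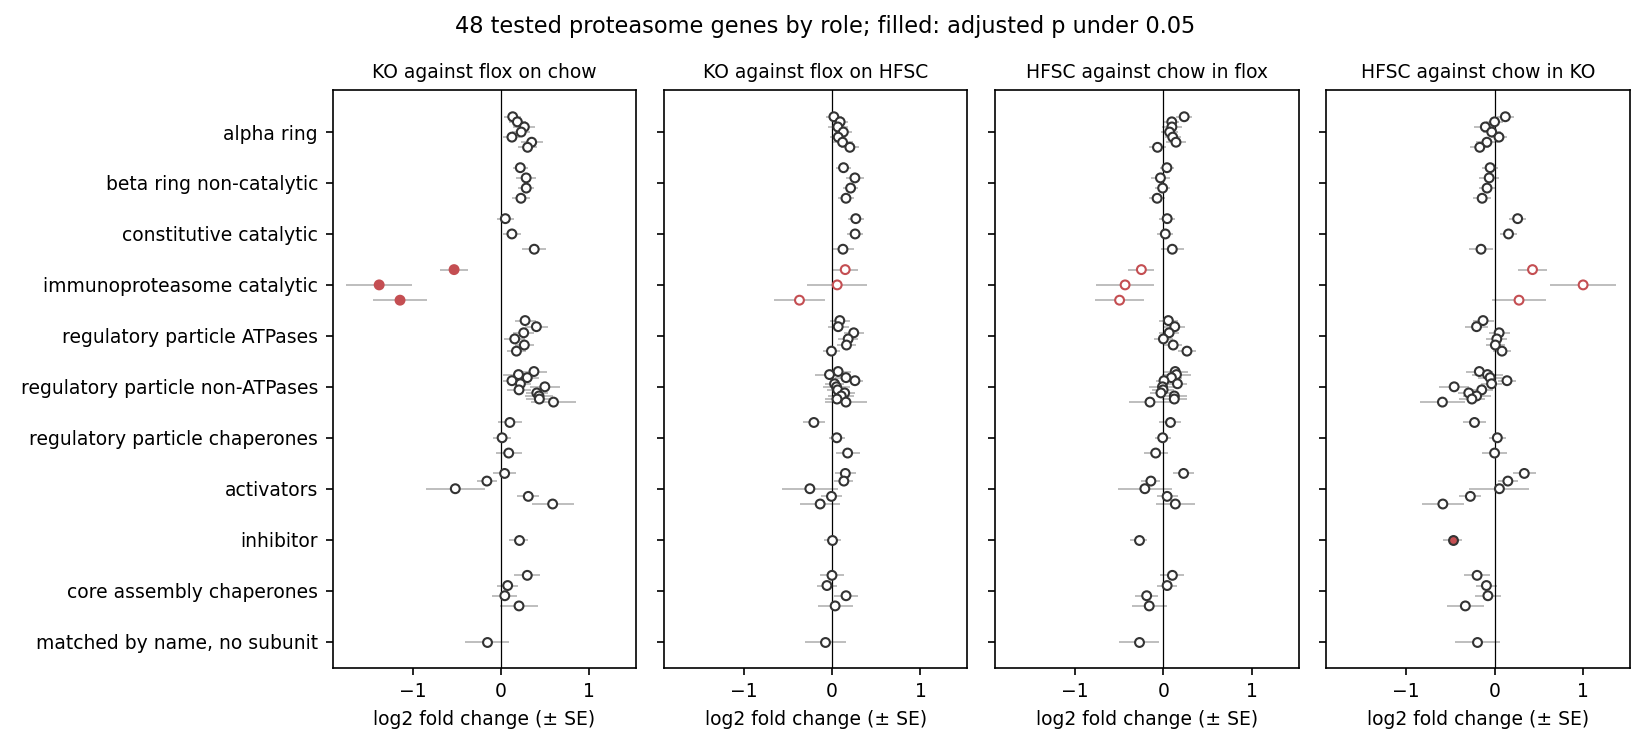
Log2 fold change ± SE (horizontal) of the 48 tested genes by role (vertical) in the 4 pairwise comparisons, on 1 common axis; filled points have an adjusted p under 0.05 and red outlines mark the induced catalytic subunits. Only Psmb8, Psmb9 and Psmb10 are filled for KO against flox on chow, and only the inhibitor Psmf1 for HFSC against chow in KO.

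On HFSC no proteasome gene passed the test between genotypes. In edgeR 0 of 48 proteasome genes were called, beside 0.0182% of all tested genes, and DESeq2 and limma voom also called 0. An unadjusted p under 0.05 in edgeR was found for 6 of the 48, beside 1721 of all 16496 tested genes. Psmb8 had 5.47, 6.59, 7.66 and 7.87 CPM in HFSC flox and 6.94, 6.95 and 7.68 CPM in HFSC KO (0.06 ± 0.34, adjusted p = 0.97). Psmb9 had 2.60, 3.75, 3.60 and 3.19 CPM in flox and 2.43, 2.49 and 2.68 CPM in KO (-0.37 ± 0.28, adjusted p = 0.70). Psmb10 had 8.61, 8.46, 8.21 and 10.3 CPM and 10.4, 9.64 and 9.57 CPM (0.15 ± 0.15, adjusted p = 0.79). All 3 overlapped between genotypes, and the leukocyte sums were 240 to 386 CPM in HFSC flox and 241 to 284 CPM in HFSC KO.

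Among the catalytic subunits, Psmb5 and Psmb6 had non-overlapping genotypes on this diet. Psmb5 had 82.1, 74.0, 80.0 and 80.2 CPM in HFSC flox and 92.5, 97.4 and 95.5 CPM in HFSC KO, with no overlap (0.27 ± 0.09, adjusted p = 0.34). Psmb6 had 94.3, 93.9, 99.8 and 89.2 CPM against 111, 110 and 118 CPM, also with no overlap (0.26 ± 0.09, adjusted p = 0.36). Psmb7 overlapped, with 129 to 145 CPM in flox and 133 to 158 CPM in KO (0.12 ± 0.13).

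Of the 31 constitutive genes 29 had a value above 0, beside 50.6% of all tested genes, with a median of 0.12 against 0.0035. With library totals their median was 0.11, with 29 above 0. No median of all tested genes is given for that scaling in this comparison. In 10 of 31 all KO libraries were above all flox libraries, beside 7.40% of all tested genes, and in 0 below, beside 5.31%. All 4 non-catalytic beta subunits were among the 10. By role the extremes were Psma1 (0.02) and Psma7 (0.20), Psmb1 (0.13) and Psmb2 (0.26), Psmc6 (-0.01) and Psmc3 (0.24), and Psmd11 (-0.03) and Psmd13 (0.26). Among the other roles, Psmd10 and Psmd9 had -0.21 and 0.18, Psme2b and Psme1 -0.25 and 0.15, Psmg2 and Psmg3 -0.06 and 0.16, Psme2 0.13 and Psmf1 0.00.

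The change of diet in flox muscle also gave no call. In edgeR 0 of 48 genes were called, beside 0.418% of all tested genes. An unadjusted p under 0.05 in edgeR was found for 3 of the 48, beside 2105 of all 16496 tested genes. DESeq2 called 0 and limma voom 5 (Psma1, Psmb9, Psmb10, Psmc6 and Psmf1). The induced subunits had values below 0, at -0.43 ± 0.33 for Psmb8, -0.50 ± 0.28 for Psmb9 and -0.25 ± 0.15 for Psmb10, with adjusted p of 0.63, 0.48 and 0.52. Without chow flox replicate 4, Psmb8 and Psmb9 were called, both lower on HFSC.

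The alpha subunit Psma1, at 57.4 to 64.1 CPM in chow flox and 69.7 to 76.6 CPM in HFSC flox, was the 1 tested proteasome gene with HFSC above chow in every library, beside 4.26% of all tested genes (0.24 ± 0.09, adjusted p = 0.30). Psmf1 was the 1 tested proteasome gene below, beside 5.60% (-0.28 ± 0.10, adjusted p = 0.25). The median of the 31 constitutive genes was 0.07 with TMM and -0.059 with library totals, while that of all tested genes was -0.01 and -0.16. Relative to all genes the 31 stood at 0.085 and 0.11. With TMM their median ran between -0.020 without chow flox replicate 3 and 0.18 without chow flox replicate 4. Single genes ran from Psmd8 (-0.15) to Psmc6 (0.27). The other extremes by role were Psma7 (-0.07), Psmb4 (-0.07) and Psmb1 (0.04), Psmb6 (0.02) and Psmb7 (0.10), Psmc4 (0.00) and Psmd14 (0.16). Outside the particle they were Psmd9 (-0.09) and Psmd10 (0.08), Psme2b (-0.21) and Psme1 (0.23), and Psmg3 (-0.19) and Psmg1 (0.10), with Psme2 at -0.14 and Psmb5 at 0.04.

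In KO muscle the inhibitor Psmf1 was lower on HFSC than on chow, and it was the only proteasome gene called. Psmf1 (chr2:151715812-151744186) had 16.8, 16.8 and 16.9 CPM in chow KO and 12.4, 12.7 and 11.3 CPM in HFSC KO. The groups were far apart compared with their spread (-0.47 ± 0.10, adjusted p = 0.00928). In flox it had 15.1, 13.7 and 15.3 CPM on chow and 12.6, 11.7, 13.2 and 10.8 CPM on HFSC, also without overlap. The call held in each fit that left out 1 library and was lost on library totals (-0.29, adjusted p = 0.16).

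This single call, 1 of 48, stands beside 25.5% of all tested genes called, 14.9% higher and 10.6% lower. Fitting only the groups compared raised the number called to 10, 4 higher (Psmb5, Psmb8, Psmb10 and Psme1) and 6 lower (Psmd2, Psmd4, Psmd8, Psme3, Psme4 and Psmf1). DESeq2 called 4 and limma voom 13. The 25.5% belongs to the reported fit alone.

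The induced subunits had higher values on HFSC in KO and missed the threshold. Every HFSC KO library was above every chow KO library for Psmb8 (1.004 ± 0.37, adjusted p = 0.0629), Psmb9 (0.28 ± 0.31, adjusted p = 0.52) and Psmb10 (0.43 ± 0.16, adjusted p = 0.0649), beside 26.8% of all tested genes. Leukocyte marker sums were 40.2 to 84.5 CPM in chow KO and 241 to 284 CPM in HFSC KO, and 10 of the 15 markers were called higher, beside 14.9% of all tested genes. All 10 fibroblast markers, 9 of 10 endothelial markers, 4 of 9 tested adipocyte markers and 3 of 8 tested lymphocyte markers were also called higher, and 1 endothelial marker lower. Endothelial sums were 253 to 316 CPM in chow KO and 570 to 641 CPM in HFSC KO. Their part in the difference was not tested.

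Psmb5 and Psmb6 were likewise higher in all HFSC KO libraries (0.26 ± 0.10, adjusted p = 0.0656, and 0.16 ± 0.10, adjusted p = 0.24), and Psmb7 was lower in all (-0.15 ± 0.14, adjusted p = 0.42). On library totals Psmb5 and Psmb6 were the 2 genes called, both higher. Over the 48 tested genes 8 were higher and 10 lower without overlap (16.7% and 20.8%). Of all tested genes 26.8% were higher and 23.8% lower without overlap, so neither share exceeded the background. Psme1 had 34.2 to 37.7 CPM in HFSC KO (0.34 ± 0.13, adjusted p = 0.072) and Psme2 19.3 to 21.9 CPM (0.15 ± 0.12, adjusted p = 0.35), each above its chow KO libraries.

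With TMM scaling, 10 of the 11 non-ATPase subunits of the regulatory particle had values below 0, and 0 were called. Of all tested genes 51.7% had values above 0. Psmd8 and Psmd2 had -0.59 ± 0.25 and -0.46 ± 0.17 (adjusted p = 0.0981 and 0.0606), and Psme4 -0.59 ± 0.24 (adjusted p = 0.0859). The median of the 31 constitutive genes was -0.08 with TMM, with 21 below 0, and 0.11 with library totals, with 25 above 0, while all genes moved from 0.02 to 0.21. Relative to all genes the 31 stood at -0.10 and -0.10. Skeletal muscle markers summed to 165904 to 213514 CPM in chow KO and 136706 to 163106 CPM in HFSC KO. Their median log2 fold change was -0.28, with 1 of 10 called higher and 0 lower, and their part in this was not tested. The remaining extremes were Psma7 (-0.17) and Psma1 (0.12), Psmb4 (-0.14) and Psmb1 (-0.05), Psmc2 (-0.20) and Psmc6 (0.08), Psmd13 (0.14), Psmd10 (-0.23) and Psmd5 (0.03), and Psmg4 (-0.33) and Psmg3 (-0.08).

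The difference between the genotype effects on the 2 diets was tested as an interaction. In edgeR 0 of 48 genes were called, beside 0% of all tested genes, and the smallest adjusted p over all tested genes was 0.0625. An unadjusted p under 0.05 in edgeR was found for 3 of the 48, beside 4811 of all 16496 tested genes. The induced subunits had the highest values, at 1.44 ± 0.50 for Psmb8, 0.77 ± 0.41 for Psmb9 and 0.68 ± 0.22 for Psmb10 (adjusted p = 0.10, 0.23 and 0.0918). Psme4 was the lowest at -0.72 ± 0.33 (adjusted p = 0.17). DESeq2 called Psmb8 and limma voom 13 genes, and edgeR called 12 without chow flox replicate 4. The genotype effects on chow and on HFSC were therefore not shown to differ in the edgeR fit of all libraries.

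By role the interaction ran from -0.23 (Psma6) to -0.06 (Psma5) in the alpha ring, -0.09 (Psmb1) to -0.03 (Psmb2) in the non-catalytic beta subunits, and -0.25 (Psmb7) over 0.14 (Psmb6) to 0.22 (Psmb5) in the constitutive catalytic ones. The ATPases ran from -0.33 (Psmc2) to 0.03 (Psmc4) and the other regulatory subunits from -0.45 (Psmd2) to 0.13 (Psmd13). Psmd10 and Psmd9 had -0.31 and 0.09, Psmg1 and Psmg3 -0.30 and 0.11, Psmf1 -0.19, Psme1 0.11 and Psme2 0.29.

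Because each induced subunit takes the place of 1 constitutive subunit, their ratio within a library was compared as well. It does not depend on scaling between libraries, but it mixes all cell types of whole muscle. A lower ratio therefore does not show less replacement within a cell, and the part of cell composition was not tested. Ratios are log2 of counts with 0.5 added. Genotype was tested within diet, and diet within genotype, by an exact two-sided permutation test with 700 arrangements, adjusted over the 6 tests. Psmb9 to Psmb6 was lower in KO by 0.87 on the log2 scale, a ratio of 0.546 times that in flox (exact permutation p = 0.00571, adjusted 0.0343).

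The Psmb9 to Psmb6 ratio was -4.11, -3.76 and -5.50 in chow flox replicates 2, 3 and 4 and -5.70 to -5.49 in chow KO. In HFSC flox it was -5.17 to -4.64 and in HFSC KO -5.49 to -5.45. The genotypes did not overlap in this ratio on HFSC, and on chow replicate 4 of flox fell among the KO libraries. Between genotypes on HFSC, Psmb9 had a log2 fold change of -0.37 and Psmb6 of 0.26, neither called, so both parts entered the ratio. The sign of the ratio difference held without any 1 library. Without any 1 of chow KO replicates 1, 2 and 3 the adjusted exact permutation p rose to between 0.24 and 0.26. Without any 1 of the HFSC flox replicates it rose to 0.06.

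The other pairs did not pass. Psmb8 to Psmb5 differed between genotypes by -0.73 (exact permutation p = 0.0943, adjusted 0.26) and Psmb10 to Psmb7 by -0.43 (exact permutation p = 0.13, adjusted 0.26). Without chow flox replicate 4 the Psmb8 to Psmb5 difference was -1.04 (adjusted p = 0.0429, exact permutation). For diet the differences were 0.25, -0.14 and 0.12 for the Psmb8, Psmb9 and Psmb10 pairs (exact permutation p = 0.50, 0.58 and 0.60, all 3 adjusted to 0.60).

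**Figure D5:**
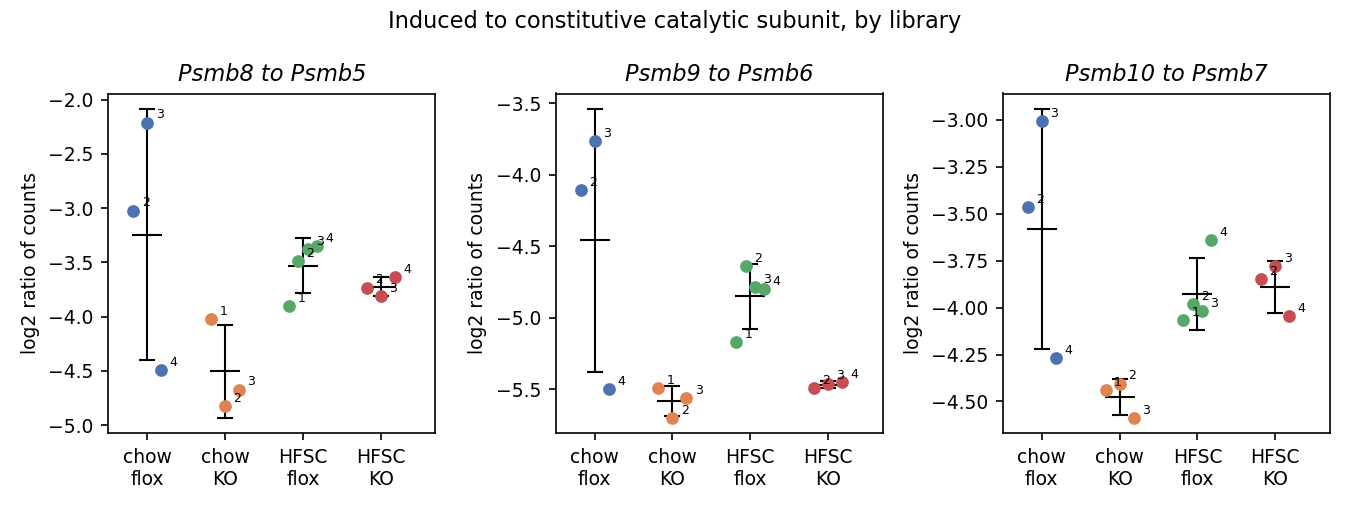
Log2 ratio of counts of each induced subunit to its constitutive partner (vertical) in each library, by group, with replicate numbers; bars are mean ± SD. For Psmb9 to Psmb6 the HFSC KO libraries, at -5.49 to -5.45, lie below all HFSC flox libraries, and chow flox replicate 4, at -5.50, lies among the chow KO libraries.

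Per length of principal mRNA the transcript of the induced subunit was a minor part of each pair in whole muscle. Psmb8 made up 6.46% ± 4.14 (SD, n = 3) of the Psmb8 and Psmb5 total in chow flox, 2.43% ± 0.745 in chow KO, 4.60% ± 0.727 in HFSC flox (n = 4) and 4.01% ± 0.233 in HFSC KO. Psmb9 made up 2.91% ± 1.48, 1.21% ± 0.0875, 2.01% ± 0.295 and 1.31% ± 0.0217 of its pair in the same order. Psmb10 made up 7.23% ± 2.77, 3.82% ± 0.242, 5.52% ± 0.738 and 5.63% ± 0.498. With merged exon lengths, an alternative chosen after seeing the data, the chow flox shares were 3.25%, 2.53% and 14.9%, lower for Psmb8 and higher for Psmb10 than with principal mRNA lengths.

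Of 17 tested genes of MHC class I processing and interferon factors, which work with the immunoproteasome in antigen presentation, 9 were lower in chow KO and 0 higher, beside 10.1% and 1.38% of all tested genes. Their median log2 fold change was -0.86, against -0.01 over all tested genes, and 8 did not pass the test, among them the peptide-trimming enzyme Erap1 at 0.21. Among them were Irf9, an interferon transcription factor (-1.02 ± 0.25, adjusted p = 0.0268), the class I heavy chain H2-D1 (-1.21 ± 0.31, adjusted p = 0.0304), the chaperone Pdia3 (-0.91 ± 0.24, adjusted p = 0.0306) and Tapbp, which loads peptide (-0.70 ± 0.19, adjusted p = 0.033). H2-D1 overlapped between the groups, at 83.0 CPM in chow flox replicate 4 and 92.7 CPM in chow KO replicate 1. The leukocyte and fibroblast markers were called lower in the same comparison (15 of 15 and 10 of 10), and their part in this was not tested. Between diets in KO 4 of 17 were higher and 0 lower, beside 14.9% and 10.6% of all tested genes: Pdia3 (1.10), H2-D1 (1.08), B2m (0.89) and Irf9 (0.75). KO against flox on HFSC and HFSC against chow in flox gave 0 calls among the 17.

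Genes that feed or regulate the constitutive particle had a median log2 fold change of 0.33 between genotypes on chow and -0.18 between diets in KO. The medians of all tested genes were -0.01 and 0.02. Of 30 tested regulators and ubiquitin-handling genes, 2 were higher in chow KO, the polyubiquitin gene Ubb (0.49 ± 0.13, adjusted p = 0.0354) and Fbxo32, the muscle ubiquitin ligase atrogin (1.03 ± 0.29, adjusted p = 0.0409), and 0 were lower, beside 1.38% higher and 10.1% lower among all tested genes. Fbxo32 had 300 ± 120 CPM (SD, n = 3) in chow flox and 613 ± 89.2 CPM in chow KO. Between diets in KO, the muscle ligase Trim63 was higher (1.27 ± 0.34, adjusted p = 0.0186), and Uba6, a ubiquitin-activating enzyme (-0.58), Ubqln4, a shuttle protein (-0.76), and Bag6, a chaperone of stray membrane proteins (-0.59), were lower. These 1 of 30 higher and 3 of 30 lower stand beside 14.9% and 10.6% of all tested genes, so neither share exceeded the background. Nfe2l1, the factor that raises proteasome genes when proteasome activity falls, was not called, at 0.36 ± 0.18 between genotypes on chow (adjusted p = 0.17) and -0.37 ± 0.18 between diets in KO (adjusted p = 0.14).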

How the data were processed

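The authors deposited raw counts of reads per Ensembl gene for 13 libraries; per the submitters' processing notes the tools were featureCounts (Subread 1.5.2), STAR 2.5.2b and Trimmomatic 0.36, on GRCm38. No source used here gives the annotation release, strand setting or handling of multiply aligned reads. Of 49315 identifiers 49056 were matched to GENCODE M21. The test was edgeR 4.0.16 under R 4.3.3 (quasi-likelihood, robust, TMM, filterByExpr) in 1 model with 4 group means, Benjamini-Hochberg adjustment over 16496 genes and a threshold of 0.05. SE is the log2 fold change divided by the root of F. Alternatives used DESeq2 1.42.0, limma 3.58.1, other scalings, no filter, a replicate block and leaving out libraries. Scripts were tested on simulated data. The members and lists were chosen with earlier results of these data known. The rule for named genes took the catalytic subunits, Psme1, Psme2, called members (at most 8 per direction), the extremes of each role, up to 4 called genes per direction of other lists, and Nfe2l1. Psmb1, Psmb3, Psme3 and others given for their spread or overlap were chosen after seeing their values. A gene with 0 reads is limited to 3 counts, or 0.0656 to 0.144 CPM on library totals without TMM factors, for counting error only.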

Additional observations from a re-analysis of the deposited data

Results flagged for a closer look

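In the HFSC flox group, the only group of 4 libraries, Dixon's test set 1 library apart for 3 of 48 proteasome genes. Psma1 was highest in replicate 1, at 76.6 CPM. Psmc6 was lowest in replicate 2, at 99.2 CPM. Psmd6 was highest in replicate 1, at 122 CPM. Chance sets a library apart in about 1 in 20 such groups. The other groups have 3 libraries and were not tested this way.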

How the results depend on the processing

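The number of proteasome genes called for KO against flox on chow, 3 in the fit reported, was 1 with no low-count filter, 0 when only the groups compared were fitted, 14 with DESeq2, 31 with limma voom and 0 to 27 when 1 library was left out. For HFSC against chow in KO, where 1 was called, it was 2 with library totals, 10 with only the groups compared, 4 with DESeq2, 13 with limma voom and 1 in each fit without 1 library. For HFSC against chow in flox it was 5 with limma voom and 0 to 2 without 1 library, and for the interaction 1 with DESeq2, 13 with limma voom and 0 to 12 without 1 library. On HFSC it was 0 in each fit. These counts are given without the share of all tested genes called in the same fits. With size factors by relative log expression (RLE) Psmb10 missed the threshold on chow (adjusted p = 0.0532).

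The median of the 31 constitutive 26S genes moved with library totals to -0.059 for KO against flox on chow, -0.059 for HFSC against chow in flox and 0.11 for HFSC against chow in KO. The medians of all tested genes under that scaling were -0.35, -0.16 and 0.21, and relative to them the 31 genes stood at 0.29, 0.11 and -0.10, against 0.27, 0.085 and -0.10 with TMM. Without 1 library the median ranged from 0.15 to 0.35 on chow and from -0.020 to 0.18 between diets in flox. Without 1 library the genotype difference in the log2 ratio ranged from -1.04 to -0.47 for Psmb8 to Psmb5 and from -1.13 to -0.70 for Psmb9 to Psmb6. The diet difference ranged from -0.066 to 0.51 for Psmb8 to Psmb5, from -0.40 to 0.036 for Psmb9 to Psmb6 and from -0.052 to 0.26 for Psmb10 to Psmb7. The causes were not tested. Values of single genes in single comparisons were unchanged in direction and side of the threshold in 3108 alternatives, moved in 260, came to pass the threshold in 124 and no longer passed it in 24.

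Of 16 same-numbered pairs of libraries 1 had deviations that correlated above 0.1, over a range of -0.34 to 0.11. Pairs with different numbers ran from -0.41 to 0.39, so this check cannot show whether samples were paired. With the number as a replicate block, 0 proteasome genes were called for KO against flox on chow (adjusted p = 0.0775, 0.0745 and 0.10 for Psmb8, Psmb9 and Psmb10) and Psmf1 was still called between diets in KO (adjusted p = 0.046). Groups of 3 and 4 libraries limit every comparison, and Psmb9, at 1.92 to 6.20 CPM, is the lowest of the catalytic genes.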
